A study of Rattus norvegicus with 87 samples.

Results

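Expression of 7 genes of antigen presentation was followed across Heterogeneous Stock (HS) rats in a small nucleus of the epithalamus, the lateral habenula (LHb). They were taken by their Ensembl identifiers from a table of 17512 genes, and all 7 had a row: RT1-Da (ENSRNOG00000032844), RT1-Ba (ENSRNOG00000000451), Cd74 (ENSRNOG00000018735), B2m (ENSRNOG00000017123), Tap1 (ENSRNOG00000000457), Psmb8 (ENSRNOG00000000456) and Psmb9 (ENSRNOG00000000459). HS rats are outbred and descend from inbred founder strains, so each rat carries its own mosaic of founder haplotypes. The LHb was dissected bilaterally from frozen sections of each rat, and polyadenylated RNA was sequenced. There were 41 males and 40 females. All were group housed and had received no drug and no behavioural test, and the labels used here give no age. They came from rat batch 2 (11 males, 4 females), batch 3 (10 males, 12 females), batch 4 (12 males, 15 females), batch 5 (1 female) and batch 6 (8 males, 8 females). Each rat gave 1 library, so every rat is a biological replicate.

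Major histocompatibility complex (MHC) molecules show peptides to T cells, and the rat MHC is called RT1. Class II molecules carry peptides from outside the cell on professional antigen-presenting cells, which in brain are mainly microglia and macrophages at its borders. Class I molecules are found on nearly all cells and carry peptides cut by the proteasome inside the cell. Interferon gamma is the classical inducer of both routes. Among the class II genes, RT1-Da and RT1-Ba encode alpha chains of the rat counterparts of human HLA-DR and HLA-DQ, and Cd74 encodes the invariant chain that escorts class II molecules to the endosome. On the class I side, B2m encodes beta 2-microglobulin, the light chain of every classical class I molecule. Tap1 encodes a subunit of the transporter that brings peptides into the endoplasmic reticulum, and Psmb8 and Psmb9 encode inducible catalytic subunits of the immunoproteasome.

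In the RefSeq annotation of the rat assembly GRCr8, 5 of the 7 genes lie on chromosome 20, in the order RT1-Da, RT1-Ba, Psmb8, Tap1 and Psmb9, and the last 3 are direct neighbours. B2m lies on chromosome 3 and Cd74 elsewhere. All 7 were matched by symbol to a RefSeq promoter. The 250 bases before each start were searched on both strands for 4 motifs, and no match of one motif overlapped another. The RFX core GCAACNG was found in 2 of the 7, RT1-Da and RT1-Ba, and in 9.78% of 33469 promoters. RFX and NF-Y are factors known to bind class II promoters. The NF-Y core CCAAT was found in 5 of the 7 (RT1-Da, RT1-Ba, Cd74, B2m and Psmb8) and in 34.02% of promoters. In both RT1-Da and RT1-Ba the forward RFX core was followed by a reversed NF-Y core, which reads ATTGG, with the starts of the matches 33 bases apart. This spacing was noticed in these promoters and then counted, and 8 of the 33469 promoters held it (0.0239%). The stretches with these matches are shown because both genes belong to the class II set described further on. Positions are counted from the start of the RefSeq promoter entry, coordinates are GRCr8, and capitals mark the RFX core and the reversed NF-Y core:
RT1-Da, chr20:4515305-4515391, plus strand, positions -110 to -24: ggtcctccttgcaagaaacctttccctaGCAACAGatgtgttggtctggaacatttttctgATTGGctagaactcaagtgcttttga
RT1-Ba, chr20:4576953-4577039, plus strand, positions -104 to -18: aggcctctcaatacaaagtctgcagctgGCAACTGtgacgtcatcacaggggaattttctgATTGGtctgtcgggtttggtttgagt

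The interferon regulatory factor core GAAANNGAA was found in 2 of the 7, B2m and Tap1, and in 8.12% of promoters. It is shown in capitals for these class I genes, reversed in Tap1:
B2m, chr3:129549140-129549235, plus strand, positions -190 to -95: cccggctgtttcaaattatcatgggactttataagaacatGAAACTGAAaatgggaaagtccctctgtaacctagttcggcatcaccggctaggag
Tap1, chr20:4668619-4668713, minus strand, positions -170 to -76: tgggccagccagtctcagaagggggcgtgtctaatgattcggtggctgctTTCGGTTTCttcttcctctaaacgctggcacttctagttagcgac
The GAS motif TTCNNNGAA, a site of STAT factors, was found only in Psmb8 among the 7 (position -245) and in 7.67% of promoters. Psmb8 also held a reversed NF-Y core, shown in capitals, but no RFX core in this window:
Psmb8, chr20:4657050-4657136, minus strand, positions -105 to -19: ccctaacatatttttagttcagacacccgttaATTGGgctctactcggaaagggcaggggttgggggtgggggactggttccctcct
Such matches describe letters and do not show that a factor is bound.

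Values are log2(normalized count + 1), called log2 levels here, where a normalized count is an estimated read count scaled to a common upper quartile. Estimated counts divide reads between similar transcripts, and RT1 genes belong to multigene families that differ between founder strains, so the values of RT1-Da and RT1-Ba are uncertain to an extent not measured here. The scaled total was 16.2 to 20.2 M counts per rat, and the total before scaling, recovered for 74 rats, had a median of 18.2 M and a range of 10.4 to 36.9 M, where M is 1000000 counts. The genes listed at 0 numbered 296 to 1661 per rat. The table lists the rats in 3 blocks, each in alphabetical order of identifier. They are called column runs here, and their meaning is not stated. Run 1 holds batch 2, run 3 holds batches 4, 5 and 6, and batch 3 is spread over run 1 (7 rats), run 2 (12 rats) and run 3 (3 rats). Lists of cell type markers were not analysed here, so the dissected tissue was not checked against its defining genes. In such bulk tissue, fewer cells of a type and less RNA per cell cannot be told apart.

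One library stood apart. Female rat 32 of batch 3, in column run 2, was the only rat with any of the 7 genes more than 5 residual SD above the fit to the other rats (sex and batch adjusted), and it had 4 such genes. RT1-Ba was at 2398 normalized counts in this rat, whereas the highest of the other 80 rats had 142. Cd74 was at 3922 against a highest of 916 elsewhere. Tap1 was at 512 against 191 and Psmb9 at 234 against 182. Psmb8 was at a log2 level of 8.87 against a highest of 7.12 in the other rats. So for 5 of the 7 genes this rat was the highest of 81. Relative to the fit it was 50.3-fold higher for RT1-Ba, 14.5-fold for Cd74, 6.93-fold for Psmb8, 4.42-fold for Tap1 and 3.41-fold for Psmb9. The other 2 genes did not share this. RT1-Da was at 78 normalized counts, 0.42 residual SD above the fit and 32nd of 81, and B2m was at 5949, 0.77 residual SD above it. Cd74 minus RT1-Da was 5.63 on the log2 scale in this rat, while it was 1.98 ± 0.34 (SD, n = 80) in the others and at most 2.99. In this rat 117 of the 13360 genes with a mean log2 level of at least 5 lay over 5 residual SD above the fit and 1 lay below it by as much. The next rat, male rat 35 of batch 4, had 31 genes above it and none of the 7, and the median over rats was 0. The number of genes at 0 in female rat 32 was 534. The cause was not tested, and many of the results that this rat moved are also given without it.

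**Figure D1:**
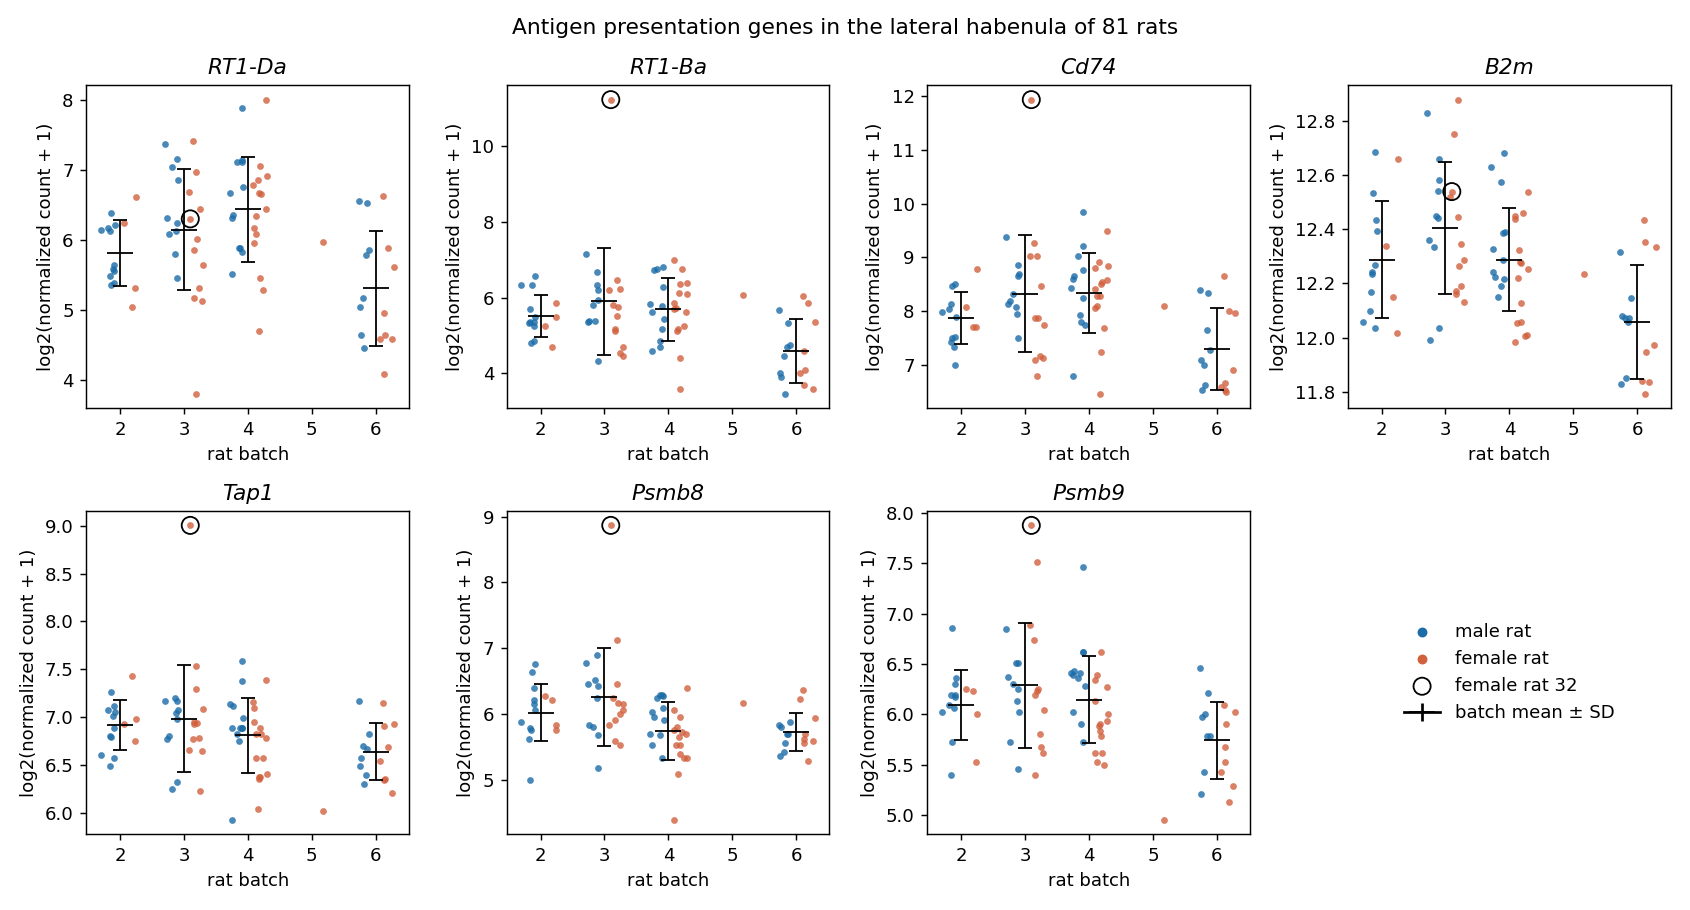
Log2 level of each of the 7 genes (vertical axis) in 81 rats by rat batch (horizontal axis). Points are rats, blue males and orange females, bars are the batch mean ± SD, and the ring marks female rat 32, which is far above all others for RT1-Ba, Cd74, Tap1 and Psmb8 but within the range for RT1-Da and B2m.

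The range between rats was wide for the class II genes and narrow for B2m. RT1-Da had a lowest, median and highest value of 13, 67 and 256 normalized counts over 81 rats. RT1-Ba ran from 10 over 44 to 2398, or to 142 without female rat 32. Cd74 ran from 87 over 268 to 3922, or to 916 without that rat. The class II genes thus differed between the lowest and the highest rat by far more than B2m, which stayed between 3546 and 7527 with a median of 4916. Tap1 ran from 60 over 112 to 512, Psmb8 from 20 over 56 to 466, and Psmb9 from 30 over 66 to 234. None of the 7 was listed at 0 in any rat.

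Between-rat variability was measured as the SD that remained after sex and batch. It was 1.00 for RT1-Ba, 0.83 for Cd74 and 0.75 for RT1-Da on the log2 scale, and without female rat 32 it was 0.77, 0.71 and 0.75. Counting error alone would give 0.24, 0.096 and 0.20, from the reads before scaling in the 73 fitted rats where these were known. Among the 13360 genes with a mean log2 level of at least 5, whose median was 0.22, the 3 class II genes lay at percentiles 98.8, 98.3 and 97.9, and without that rat at 98.1, 97.6 and 97.9. Among all 17512 genes, which include many of low level, they lay at 89.8, 81.8 and 79.5. The processing genes were less variable, with 0.52 for Psmb8 (0.42 without the rat), 0.47 for Psmb9 (0.42) and 0.41 for Tap1 (0.34), against counting errors of 0.19, 0.18 and 0.14. B2m was at 0.22 with a counting error of 0.020, at percentile 46.7 of the former and 35.6 of all genes. No gene of the 7 fell into 2 separate levels among the 80 rats of the larger batches, and 103 of 15117 genes did (0.681%). The rule asked for means over 4 SD apart, a BIC difference over 10 and at least 10% of rats in the smaller part. RT1-Ba, Tap1 and Psmb8 passed on distance and BIC, but their smaller part was 1.25% of rats, which is female rat 32 alone.

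The first comparison was between the sexes. None of the 7 genes passed the threshold (limma with rat batch as a covariate, adjusted p under 0.05), and 23 of 17512 genes did (0.131%). At an unadjusted p under 0.05 the counts were 0 of 7 and 882 of all genes. The difference nearest to the threshold was that of RT1-Da, whose log2 level was higher in males by 0.30 (SE 0.17, 95% interval -0.029 to 0.64, limma unadjusted p = 0.073, adjusted p = 0.998). In males RT1-Da had a lowest, median and highest value of 21, 69 and 236 normalized counts and in females of 13, 63 and 256, so the sexes overlapped almost completely. Psmb9 was higher in males by 0.18 (SE 0.11, 95% interval -0.034 to 0.39, limma adjusted p = 0.998). The intervals of the other genes were -0.046 to 0.15 for B2m, -0.30 to 0.43 for Cd74, -0.44 to 0.45 for RT1-Ba, -0.18 to 0.19 for Tap1 and -0.18 to 0.30 for Psmb8. Without female rat 32 the differences became 0.14 for RT1-Ba, 0.15 for Cd74, 0.055 for Tap1, 0.13 for Psmb8, 0.22 for Psmb9, 0.31 for RT1-Da and 0.055 for B2m, and none passed (limma adjusted p at least 0.86). True differences of any size inside these intervals remain possible. Within batches, the male minus female value of RT1-Da was 0.018, 0.55, 0.18 and 0.38 in batches 2, 3, 4 and 6, and that of Psmb9 was 0.12, -0.14, 0.43 and 0.22. Without female rat 32, Psmb9 had a mean log2 level of 6.21 in both sexes of batch 3. None of the 7 passed the test for a sex difference that varied between batches (limma interaction, 0 of 17512 genes, 0.0%), with 0 of 7 and 306 of all genes at an unadjusted p under 0.05. This does not show that the difference was the same in all batches. Within batch 4, Psmb8 (0.37) and Psmb9 had a limma unadjusted p of 0.029 and 0.0072, beside 645 of all genes under 0.05. Neither passed after adjustment.

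Rat batches were compared next, adjusting for sex. All but Tap1 passed the threshold, 6 of 7, but 65.3% of all genes passed too, so a call was the usual outcome in this comparison (limma F-test, adjusted p from 8.9e-05 for RT1-Da to 0.0087 for Psmb9, and 0.10 for Tap1). Batch 6 had the lowest mean log2 level of these batches for all 7 genes. RT1-Ba had a lowest, median and highest value of 10, 22 and 65 normalized counts in batch 6, of 25, 40 and 94 in batch 2, of 19, 54 and 2398 in batch 3 and of 11, 52 and 126 in batch 4. Cd74 had 89, 130.5 and 402 in batch 6, against medians of 235, 284 and 346 in batches 2, 3 and 4. RT1-Da had 16, 33.5 and 98 in batch 6, against medians of 49, 72 and 86. The batches overlapped for each of these genes, but the medians in batch 6 were below those of every other tested batch.

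Against batch 3, all 7 genes were lower in batch 6 (limma, adjusted p at most 0.023), where 27.4% of all genes were called lower. The differences were -1.30 for RT1-Ba (SE 0.32), -1.03 for Cd74 (SE 0.26), -0.85 for RT1-Da (SE 0.24), -0.55 for Psmb9 (SE 0.15), -0.54 for Psmb8 (SE 0.17), -0.35 for B2m (SE 0.070) and -0.34 for Tap1 (SE 0.13). The median difference over all genes was 0.044, so the members lay well below it. Without female rat 32 the other 6 still passed and Tap1 did not (-0.25, limma adjusted p = 0.051). When column run was also adjusted for, this contrast rested on the 3 batch 3 rats of run 3, where all of batch 6 lies. Then only B2m, Cd74 and RT1-Da passed (-0.49, -1.46 and -1.75), and Psmb8 and Tap1 were at -0.016 and -0.060. RT1-Ba and Psmb9 kept the size of their differences, -1.26 and -0.59, but did not pass (limma adjusted p = 0.083 and 0.078). Against batch 4, 4 of the 7 were lower in batch 6, RT1-Da, RT1-Ba, Cd74 and B2m, while 2.35% of all genes were called lower. Psmb9 did not pass (-0.41, limma adjusted p = 0.068). Psmb9 joined the 4 with ranks, with column run as a covariate, without batch 3 or without female rat 32 (limma adjusted p from 0.019 to 0.046). Its difference was -0.42 without that rat, which is in neither batch. With genes at 0 as a covariate RT1-Ba (-1.10, limma adjusted p = 0.050) and B2m (-0.19, limma adjusted p = 0.10) no longer passed, and with 20 expression components none of the 4 did (limma adjusted p from 0.48 to 0.95). These components were computed from the whole expression table without removing batch, and 65.3% of its genes differed between batches. They can therefore carry batch differences themselves, so this loss of calls is not informative. Against batch 2, RT1-Ba (-0.92, SE 0.35, limma adjusted p = 0.030) and B2m (-0.22, SE 0.077, limma adjusted p = 0.017) were lower, 2 of 7 beside 21.8% of all genes. Among the other batches, RT1-Da was higher in batch 4 than in batch 2 by 0.71 (SE 0.24, limma adjusted p = 0.016), 1 of 7 beside 16.1% of genes. Psmb8 was lower in batch 4 than in batch 3 by 0.52 (SE 0.15, limma adjusted p = 0.0020), 1 of 7 beside 26.2%. Batches 2 and 3 differed in none of the 7, also at an unadjusted p under 0.05, whereas limma called 7.44% of genes.

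Batches and column runs overlap, so 3 comparisons were made in which one of them was held fixed, with sex as a covariate. Batches 4 and 6 were compared within run 3 (27 and 16 rats). There 5 of the 7 genes were lower in batch 6, and 4.17% of all genes were called lower. The log2 level of RT1-Da fell by 1.14 (SE 0.24, limma adjusted p = 0.0069), to 0.453 of its level in batch 4. RT1-Ba fell by 1.10 (SE 0.26, limma adjusted p = 0.011) and Cd74 by 1.05 (SE 0.23, limma adjusted p = 0.0084), or to 0.468 and 0.481 of batch 4. So the class II genes stood at about the same ratio. Psmb9 fell by 0.42 (SE 0.12, limma adjusted p = 0.024) and B2m by 0.23 (SE 0.061, limma adjusted p = 0.016). Psmb8 differed by -0.027 (SE 0.12) and Tap1 by -0.18 (SE 0.11), and neither passed (limma adjusted p = 0.91 and 0.29). With the number of genes listed at 0 in each rat as a further covariate, RT1-Da, RT1-Ba and Cd74 remained past the threshold at -1.10, -1.05 and -1.01, beside 0.331% of all genes called lower. Psmb9 kept its difference at -0.42 and B2m was at -0.18, and neither passed (limma adjusted p = 0.079 and 0.10).

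Runs 1 and 2 were compared within batch 3 (7 and 12 rats). Here the 4 class I genes were higher in run 2, and 11.7% of all genes were called higher. Psmb8 had a lowest, median and highest value of 45, 56 and 66 normalized counts in run 1 and of 59, 87 and 466 in run 2, so only the top of run 1 reached into run 2. The difference was 0.91 for Psmb8 (SE 0.29, limma adjusted p = 0.029), 0.82 for Psmb9 (SE 0.25, limma adjusted p = 0.026), 0.70 for Tap1 (SE 0.22, limma adjusted p = 0.027) and 0.29 for B2m (SE 0.096, limma adjusted p = 0.033). Without female rat 32 these became 0.65, 0.67, 0.50 and 0.29, and all 4 still passed (limma adjusted p from 0.012 to 0.047). The class II genes did not pass with that rat or without it. Without it they differed by 0.62 for RT1-Ba (SE 0.36), 0.11 for Cd74 (SE 0.33) and 0.046 for RT1-Da (SE 0.38), which leaves wide intervals. Batches 2 and 3 within run 1 (15 and 7 rats) differed in none of the 7, with 0.0% of all genes called by limma. At an unadjusted p under 0.05 there were 1 of 7, Tap1 (-0.35, SE 0.13), and 1507 of all genes. Whether the difference of one gene exceeded that of another was not tested.

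**Figure D2:**
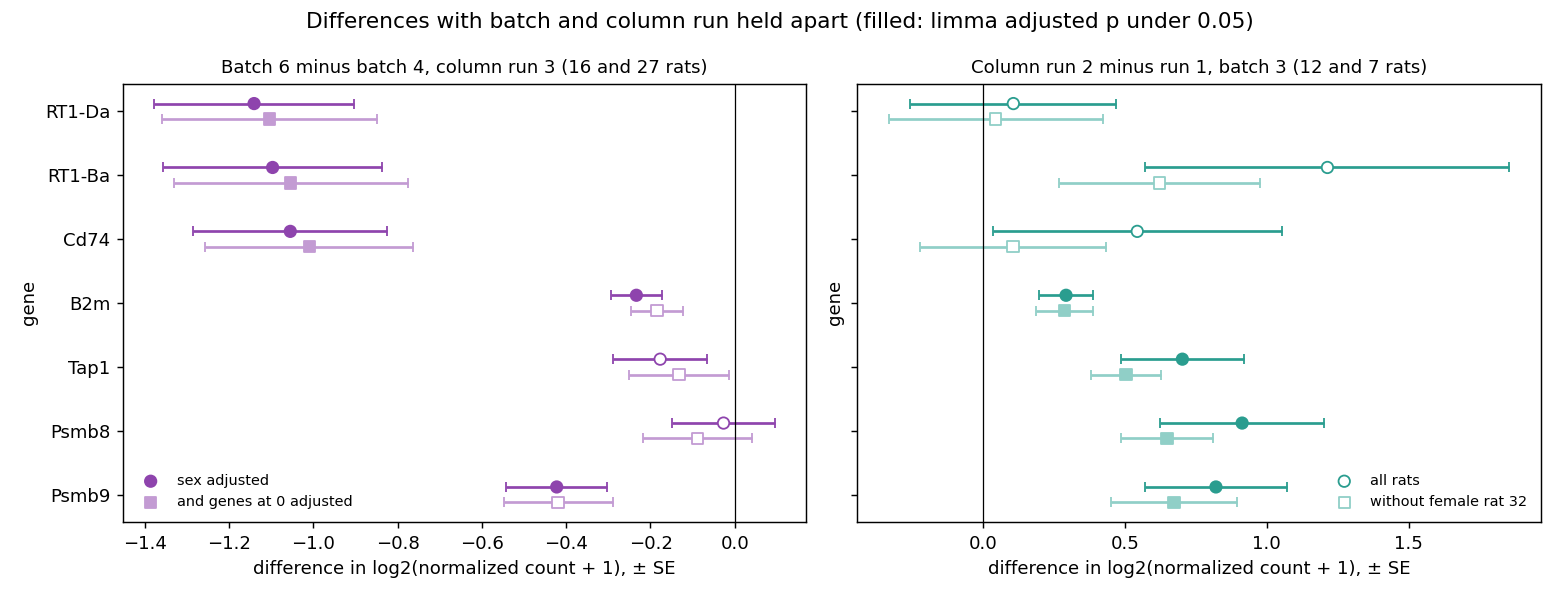
Difference in log2 level ± SE (horizontal axis) for each gene (vertical axis), between batches 6 and 4 within column run 3 (left) and between column runs 2 and 1 within batch 3 (right). Filled symbols passed the limma threshold. On the left RT1-Da, RT1-Ba and Cd74 lie near -1.1 with or without adjustment for genes at 0, and on the right the filled symbols are B2m, Tap1, Psmb8 and Psmb9, with or without female rat 32.

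The last comparison asked which of the 7 genes rose and fell together from rat to rat once sex and batch had been removed (21 pairs, 80 rats, two-sided permutation tests of residuals with 100000 permutations, adjusted over the 21). All 21 pairs were positive and passed at an adjusted permutation p under 0.05 by Pearson's r and by Spearman's rho, but they differed in size. The closest pair was Cd74 and RT1-Da, with a rho of 0.87 and an r of 0.79 (permutation p 1e-05 for each, the smallest that these permutations can give). Leaving out the 2 rats farthest from the median of Cd74 gave an r of 0.88. The r of this pair was 0.72, 0.67, 0.88 and 0.94 within batches 2, 3, 4 and 6, and 0.93 in batch 3 without female rat 32. For the other pairs too, the 2 farthest rats are those of the gene named first, unless stated. Cd74 and RT1-Ba followed with a rho of 0.82 and an r of 0.87 (permutation p 1e-05 for each, r 0.80 without the 2 farthest rats), and r was 0.70, 0.91, 0.81 and 0.90 within the batches. In batch 3 the r of Cd74 with RT1-Ba was 0.77 without female rat 32. RT1-Da and RT1-Ba had a rho of 0.75 and an r of 0.60 (permutation p 1e-05 for each), with r from 0.41 in batch 3 (0.66 without female rat 32) to 0.95 in batch 6. The r of this pair was 0.62 without the 2 rats farthest in RT1-Da. Without the 2 farthest in RT1-Ba, which include female rat 32, it was 0.70. Over the 80 rats Cd74 had a higher rho with each of them than they had with each other, but not in batch 6. There the rho of RT1-Da with RT1-Ba was 0.96, and that of Cd74 with them was 0.86 and 0.79. The order also failed in batch 3 without female rat 32, where rho was 0.79 for RT1-Da with RT1-Ba and 0.78 for Cd74 with RT1-Ba. Without female rat 32 the r of the 3 class II pairs was 0.90, 0.81 and 0.74.

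The processing genes made a second set, in which Psmb8 and Psmb9 were the closest pair. Psmb8 and Psmb9 had a rho of 0.71 and an r of 0.73 (permutation p 1e-05 for each, r 0.67 without the 2 farthest rats), and r was 0.78, 0.80, 0.64 and 0.56 within batches 2, 3, 4 and 6. In batch 3 the r of Psmb8 with Psmb9 was 0.69 without female rat 32. Tap1 and Psmb8 had a rho of 0.60 and an r of 0.69 (permutation p 1e-05 for each, r 0.54 without the 2 farthest), and Tap1 and Psmb9 had 0.54 and 0.63 (permutation p 1e-05 for each, r 0.53 without the 2 farthest). Without female rat 32 the r of these pairs was 0.66, 0.52 and 0.52. Within the 4 batches the rho of the 3 pairs lay between 0.42 and 0.76. Without female rat 32 the r of B2m with the other genes ran from 0.41 for Psmb8 to 0.60 for Psmb9, which overlaps these pairs.

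Between the class II and the processing genes the relation was looser by rho with all batches together. The rho of these 9 pairs ran from 0.28 for RT1-Da with Psmb8 to 0.49 for RT1-Ba with Tap1. The lowest, RT1-Da with Psmb8, had an r of 0.23 (permutation p = 0.038, adjusted 0.038, r 0.24 without the 2 farthest) and within-batch values of 0.044, 0.14, 0.44 and 0.33. Several r values here rested in part on female rat 32. Cd74 with Psmb8 had an r of 0.50 with it and 0.28 without it, and RT1-Ba with Psmb8 had 0.58 and 0.32, and both pairs passed either way (adjusted permutation p = 0.014 and 0.0055 without it). Within batches, 8 of the 9 pairs had a positive rho in batch 2, the exception being RT1-Ba with Psmb9 (-0.055, r 0.21), and 9 in batches 3, 4 and 6. By r the exception was RT1-Da with Tap1 in batch 3 (-0.040, and -0.19 without female rat 32). In batch 3 the r of Cd74 with Tap1 was 0.60 with that rat and -0.011 without it. Tap1 in batch 6 was not closer to the processing genes. Its rho there was 0.82 with RT1-Ba, 0.79 with RT1-Da and 0.55 with Cd74, but 0.46 with Psmb8 and 0.42 with Psmb9. With all batches together B2m was related to each of the other 6 at a similar strength, with a rho of 0.46 to 0.52. Within batches its rho ran from 0.24 with RT1-Da in batch 2 to 0.79 with RT1-Ba in batch 3 and with Tap1 in batch 6. Whether one correlation exceeded another was not tested.

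**Figure D3:**
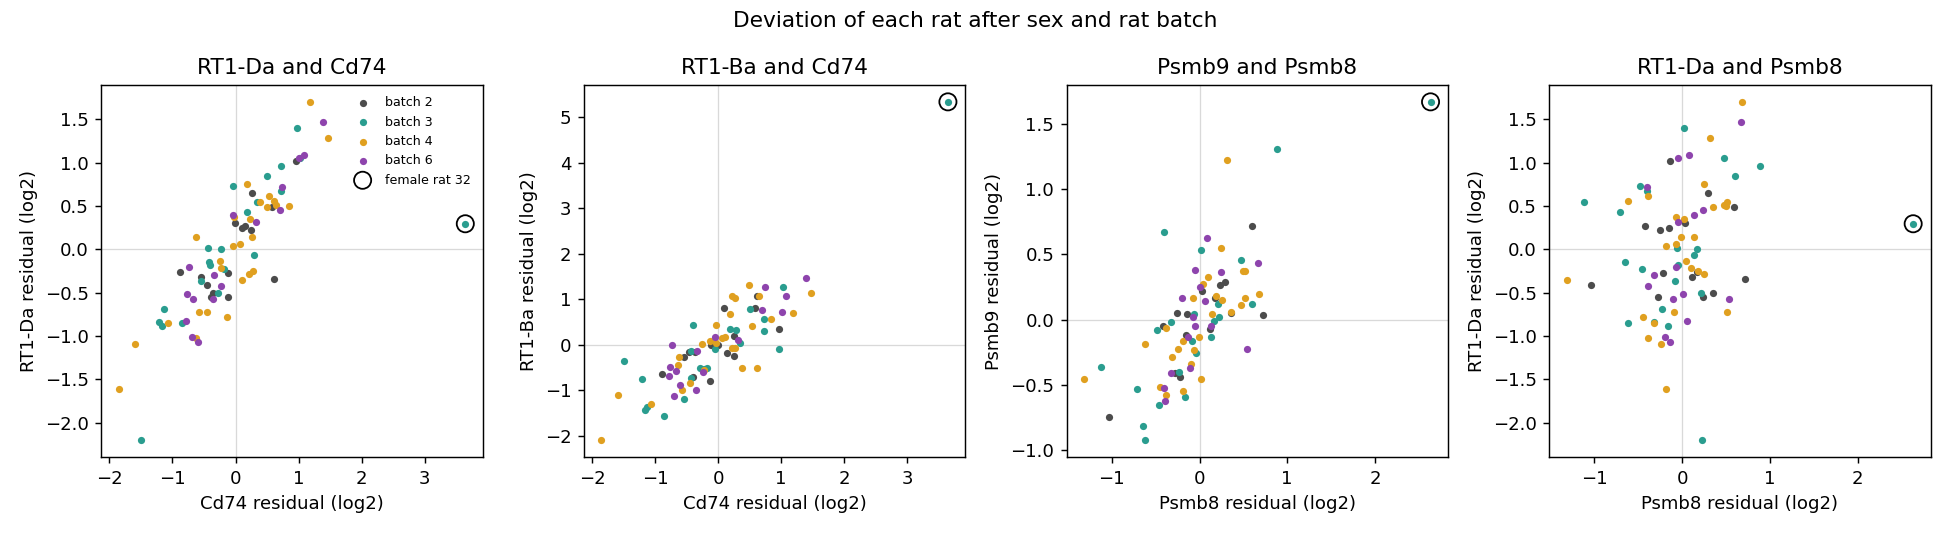
Deviation of each of 80 rats from the fit on sex and rat batch (log2, both axes) for 4 pairs of genes, with colours for the batches and a ring around female rat 32. The first 3 pairs lie along a line (rho 0.87, 0.82 and 0.71), the fourth, RT1-Da and Psmb8, is loose (rho 0.28), and the ringed rat is off the line of RT1-Da and Cd74.

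Removing 20 expression components as well left the pairs within each of these sets and few others. Such components are computed from the expression table itself and can also remove shared variation of these genes. The 3 class II pairs kept an r of 0.44 to 0.67 and the 3 processing pairs an r of 0.27 to 0.56, and all 6 passed by r (adjusted permutation p under 0.05), though Tap1 with Psmb9 did not by rho (0.24). Of the other 15 pairs, 2 passed, and both were then negative, B2m with Cd74 at -0.30 (adjusted permutation p = 0.019) and RT1-Ba with Psmb9 at -0.34 (adjusted permutation p = 0.0051). These permutations made no allowance for the components fitted before them, so their p values are too small. Calls near the threshold are therefore uncertain, such as B2m with Cd74 and, by r, Tap1 with Psmb9 (adjusted permutation p = 0.036). With column run or genes at 0 as a covariate all 21 pairs passed.

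**Figure D4:**
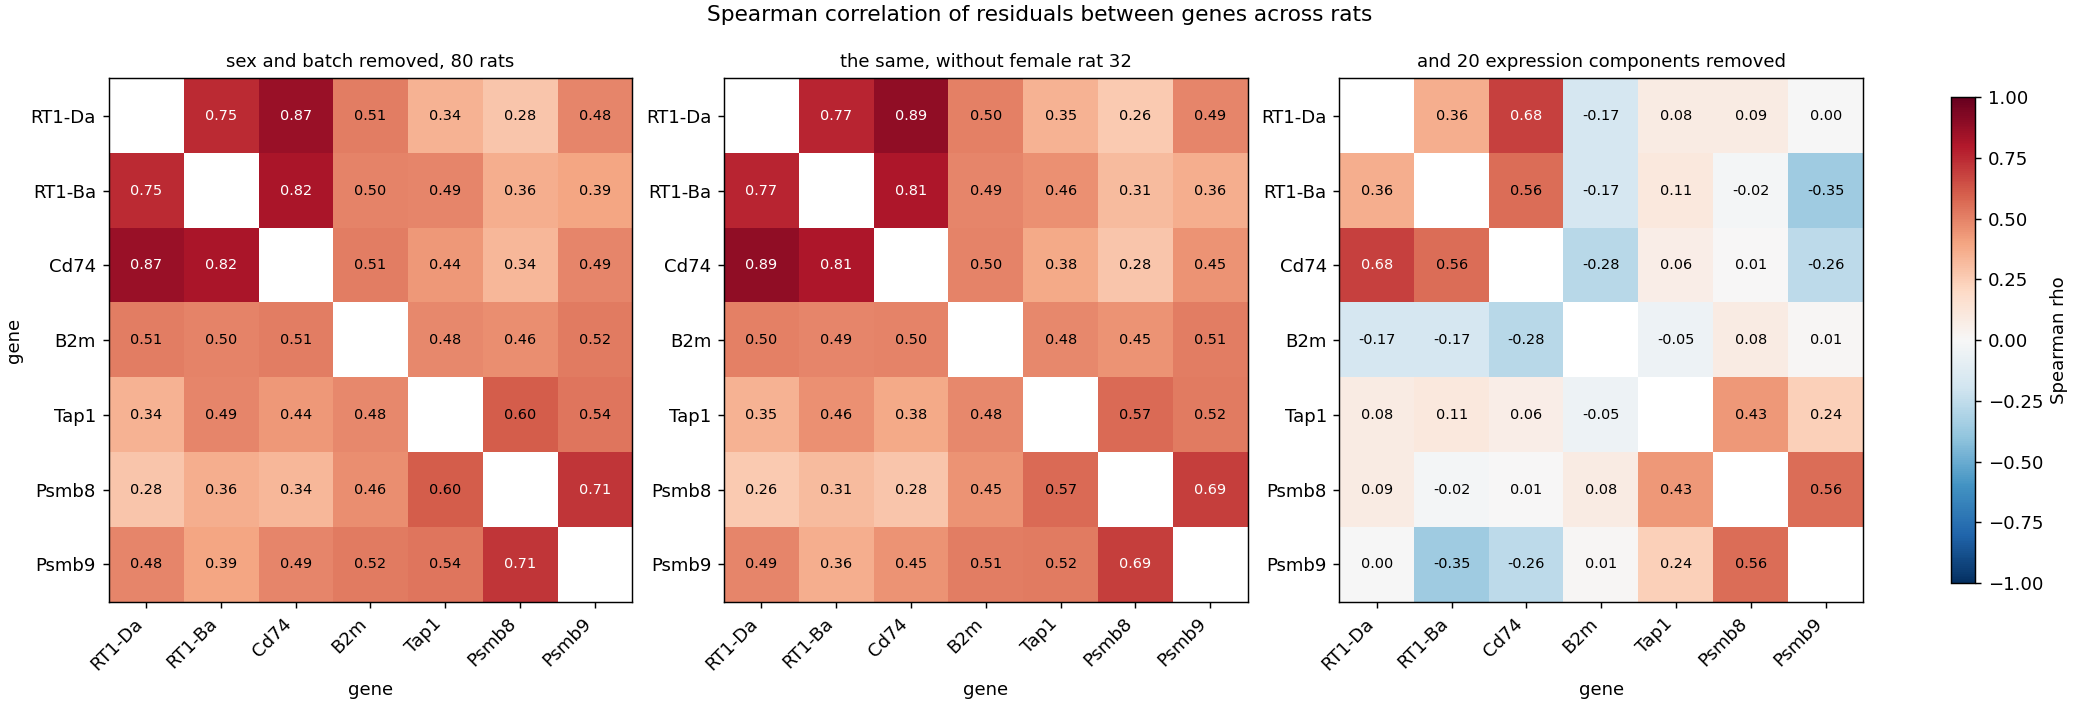
Spearman rho between the residuals of each pair of genes (both axes), as colour and number, after sex and batch were removed (left), without female rat 32 (middle) and after 20 expression components were also removed (right). The block of RT1-Da, RT1-Ba and Cd74 (0.75 to 0.87) and the block of Tap1, Psmb8 and Psmb9 (0.54 to 0.71) remain positive on the right, where the values between the blocks run from -0.35 to 0.11.

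The genes most like each member across the 80 rats were sought by Spearman's rho of residuals among genes with a mean log2 level of at least 5. These ranks are a description, and the rats share their batches and runs. The first for Cd74 was RT1-Da and the next RT1-Ba. For RT1-Da and for RT1-Ba the first was Cd74, and RT1-Ba was 4th for RT1-Da. The genes ENSRNOG00000019902 (rho 0.78 with Cd74 and 0.76 with RT1-Da), ENSRNOG00000011648 (rho 0.75 with RT1-Da) and ENSRNOG00000032708 (rho 0.81 with RT1-Ba) came as close. The sources used here do not pair these identifiers with symbols. Psmb8 and Psmb9 were each other's first, and Tap1 was 2nd for Psmb8 and 11th for Psmb9. The first 3 for Tap1 were other genes (rho 0.62 to 0.64), with Psmb8 4th. The first 3 for B2m were other genes (rho 0.77 to 0.79), and the other 6 members stood between ranks 1007 and 1469, since many genes followed B2m as closely. In the lists of the processing genes B2m stood higher, 17th for Psmb9, 29th for Psmb8 and 57th for Tap1.

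B2m also went with the number of genes listed at 0. After sex and batch, its level was higher in rats with more genes listed at 0, with a rho of 0.37 and an r of 0.36 (80 rats, permutation p = 8.0e-04 and 0.0012, adjusted 0.011 and 0.016 over 14 relations, r 0.35 without the 2 farthest rats). None of the other 13 relations, of the 7 genes with genes at 0 and with the recovered total (73 rats), passed at an adjusted permutation p under 0.05. The part of the number of genes at 0 in the differences of B2m between batches was tested only by the covariate above.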

How the data were processed

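The deposited values are log2 values: the authors trimmed reads with cutadapt, aligned them to the Ensembl rat transcriptome with RSEM, which estimates a count for each gene (build Rnor_6.0 per the labels), scaled them to a common upper quartile with DESeq2, added 1 and took log2. Versions are not given in the sources used here. All 81 columns were matched to samples by title. The authors had removed 6 of 87 samples and exchanged the labels of 2 rats. The scaling factor of each library was recovered from its low whole values by maximum likelihood (74 of 81 rats, 37 of 37 resolved simulated libraries within 1%).

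Group differences were fitted on the whole table with limma 3.58.1 in R 4.3.3 (lmFit, eBayes with trend, two-sided or F, Benjamini-Hochberg over 17512 genes, threshold 0.05) in 80 rats of batches 2, 3, 4 and 6. The batch 5 rat was left out. On simulated data with 200 of 17512 genes changed by 0.5, the sex test recovered 95% and 6.86% of its calls were false, and the batch test recovered 80.5% with 4.73% false. The noise was independent between genes, and changed genes were drawn from those with a mean log2 level of at least 5. Their median residual SD was 0.22, whereas the class II genes had 0.75 to 1.00, so these shares do not carry over to them. Correlations used Python 3.11.15 with numpy 2.4.6 and pandas 2.3.3. Symbols are those of the rule that defines the set. The members, lists and tests were chosen with earlier results of these data known. The rule for named genes was all 7, the 3 most like each and 4 promoter motifs. Genes outside the 7 that were most like B2m or the processing genes are not identified here. Pathway and marker lists were not analysed, because neither the deposited table nor the reference used here pairs the other identifiers with symbols. Pairs of identifiers and symbols in the paper's supplement were not used. Alternatives were another pseudocount, a filter on low levels, ranks, no trend, 20 expression components, genes at 0 or column run as covariates, leaving out each batch or the relabelled rats and, chosen after the data were seen, leaving out female rat 32.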

Additional observations from a re-analysis of the deposited data

How the results depend on the processing

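The count of 7 genes past the threshold was 0 for sex and for the interaction under every alternative run. For rat batch it was 6, and it became 0 with 20 expression components and 2 without batch 6 (RT1-Da and Psmb8). Column run as a covariate and leaving out batch 3 each left 5, without Psmb8. Batch 6 was lower than batch 3 in 7 genes, which became 3 with column run as a covariate and 0 with 20 expression components. With column run that contrast rests on the 3 batch 3 rats of run 3. Genes at 0 as a covariate (-0.32, limma adjusted p = 0.051), like leaving out female rat 32, took Tap1 out of these 7. Batch 6 was lower than batch 4 in 4 genes, which became 2 with genes at 0 as a covariate and 0 with 20 expression components. Psmb9 made it 5 with ranks, with column run as a covariate, without batch 3 or without female rat 32. The 20 components can carry batch differences themselves, so the counts of 0 for batch are not informative. Within column run 3 the 5 genes became 3 when genes at 0 were a covariate, which was tried only after the data had been seen. The cause was not tested. Pairs past the threshold fell from 21 to 8 with 20 expression components, where r turned negative for B2m with Cd74 (-0.30), RT1-Da (-0.23), RT1-Ba (-0.23) and Tap1 (-0.023), and for Psmb9 with Cd74 (-0.15) and RT1-Ba (-0.34). The permutation p values behind these 8 are too small, since they made no allowance for the fitted components. Pairs of RT1-Da with Tap1 or Psmb8 also missed the threshold without batch 4 or batch 6. No gene fell into 2 separate levels under any alternative run.

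No paired analysis was possible because the rats carry no replicate numbers that pair males with females. The planned correlations with marker lists were not run. Depth limits RT1-Da, RT1-Ba, Psmb8 and Psmb9 most, since counting error alone gives an SD of 0.18 to 0.24 there. Leaving out a batch also leaves fewer rats in the fit.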

Other observations

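The 1 female of batch 5 entered no fit. Its Psmb9 value of 30 normalized counts was the lowest of all 81 rats. It had 64 for Tap1, 71 for Psmb8, 62 for RT1-Da, 66 for RT1-Ba, 273 for Cd74 and 4816 for B2m, all within the range of the other rats.

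Dixon's ratio was used to look for single rats that stood apart in each group of one sex and one batch with 4 to 10 rats. Of the 28 sets of a gene and a group, 0 held a rat beyond the 95% critical value, where chance gives about 1.4. Female rat 32 belongs to a group of 12 and was not covered by this search. The lowest RT1-Da value, 13 normalized counts, was that of another female of batch 3, whose group was likewise not searched.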
